A study of Homo sapiens with 4 samples.

Results

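ATF4 and 9 genes of the integrated stress response, ATF3, ATF5, DDIT3, DDIT4, TRIB3, CHAC1, ASNS, STC2 and PPP1R15A, were followed in RNA-seq libraries of THP-1 cells. The genes were chosen by name, with earlier results of these data known, and all 10 were found among the 25680 gene rows of the deposited tables. THP-1 is an established human acute myeloid leukaemia line of monocytic type. Cells were transduced with a lentivirus carrying a scrambled shRNA (Scrambled, n = 2 libraries) or an shRNA against PIWIL4 (shPIWIL4, n = 2 libraries). All cells were sorted by FACS 48 hours after transduction, and no group of untransduced cells is included. With a single hairpin, effects of lower PIWIL4 and other effects of that hairpin cannot be told apart. The design asked which genes differ in expression after knockdown of PIWIL4, a PIWI-family Argonaute protein.

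The integrated stress response begins when a kinase that senses amino acid shortage, endoplasmic reticulum (ER) stress, double-stranded RNA or haem deficiency phosphorylates the translation factor eIF2. Most protein synthesis then slows, while ATF4 mRNA is translated more because of short upstream reading frames. ATF4 protein, a bZIP transcription factor, drives genes for amino acid supply, redox balance, feedback and cell death. ATF4 protein and eIF2 phosphorylation were not measured here, so all values below are transcript levels.

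PIWIL4 itself stood at 38.5 and 37.2 CPM in Scrambled and at 17.8 and 17.4 CPM in shPIWIL4, where each pair of values here and below gives library 1 and then library 2. CPM are counts scaled to library size with TMM, edgeR's trimmed mean of M-values. PIWIL4 was 2.15-fold lower (log2 fold change -1.10, SE 0.09, adjusted p = 1.3e-05, edgeR's quasi-likelihood F test, Benjamini-Hochberg adjusted, as for every adjusted p below unless another tool is named). Library totals ranged from 31458079 to 53657246 counts. All 10 monocytic marker genes were above 1 TPM in every library, and 9 of 11 markers of other lineages were below 1 TPM in each. The summed level of the monocytic markers was 1296 to 1330 TPM in Scrambled and 3766 to 3880 TPM in shPIWIL4, of which LYZ alone gave a mean of 195 and 2465 TPM. The markers did not move together, with 3 of 10 higher, 3 lower and a median log2 fold change of -0.01. PTPRC and CSF1R fell by 0.94 and 0.49. The part of these markers in the results below was not tested.

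Of the 10 stress response genes, all of which passed the filter on low counts, 9 fell and 1, DDIT3, rose in shPIWIL4. In bulk libraries, fewer expressing cells and less RNA per cell cannot be told apart. Calls were made where the adjusted p was below 0.05. Of all 16108 genes tested, 57.7% were called, 28.7% as higher and 29.1% as lower. The median log2 fold change was -0.53 over the 10 genes and -0.00345 over all genes tested. The groups did not overlap in CPM for any of the 10 genes, a state found for 78.6% of all tested genes. At least a 2-fold fall was called for 3 of the 10, STC2, DDIT4 and ATF5, against 11.3% of all tested genes. The count of lower genes was 5 without Scrambled library 1, and with DESeq2 it was 7. ATF4, ATF5, DDIT4, STC2 and PPP1R15A kept their call in every alternative tried, and all 10 genes kept their direction. With upper-quartile factors 3446 of all genes were higher and 5717 lower, against 4618 and 4683 with TMM, as the median of all genes moved to -0.12.

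**Figure D1:**
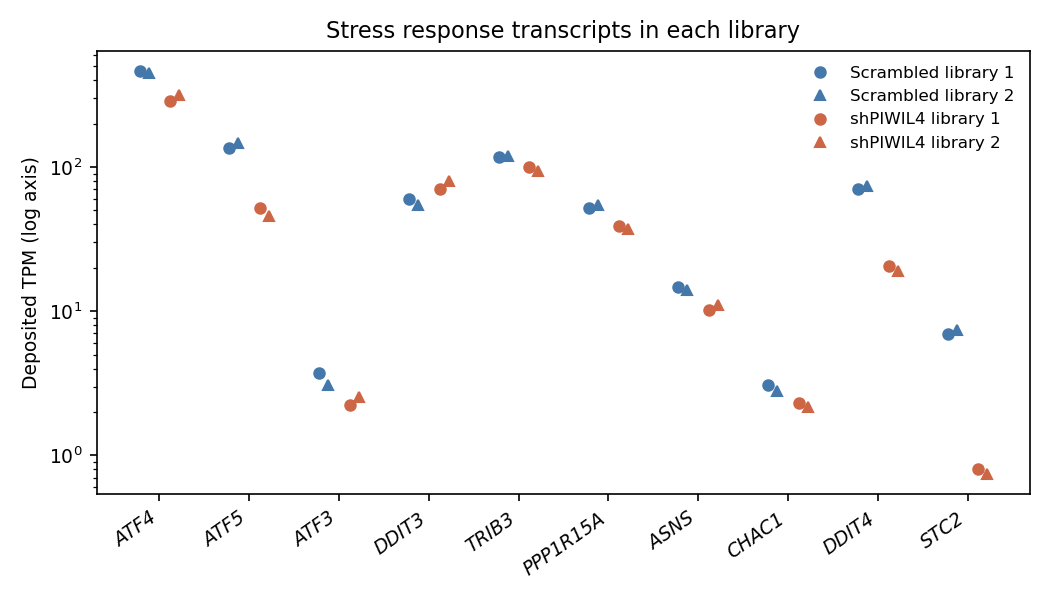
Deposited TPM (length-scaled transcript abundance, log axis) of the 10 stress response genes in each of the 4 libraries. Points are single libraries, coloured by group with a different shape for libraries 1 and 2. The shPIWIL4 points lie below the Scrambled points for 9 genes and above them for DDIT3.

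Levels of different genes were compared on the TPM scale, which divides by gene length. In the Scrambled libraries ATF4 was the most abundant of the 10, at 459 ± 8.7 TPM (SD, n = 2, as for every ± below), rank 222 among all gene rows. ATF5 followed at 142 ± 9.1 TPM and TRIB3 at 119 ± 0.89 TPM. DDIT4 stood at 72.2 ± 3.2 TPM, DDIT3 at 57.3 ± 4.4 TPM and PPP1R15A at 53.4 ± 1.5 TPM, and the ranges of DDIT3 and PPP1R15A overlapped. ASNS had 14.4 ± 0.60 TPM and STC2 7.20 ± 0.36 TPM. ATF3 and CHAC1 came last at 3.39 ± 0.45 and 2.94 ± 0.18 TPM, a gap about as large as the SD of ATF3.

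The order differed in shPIWIL4. ATF4 stayed first at 302 ± 18 TPM, now at rank 429 of all rows. TRIB3 was next at 97.2 ± 3.9 TPM, then DDIT3 at 75.02 ± 6.4 TPM. ATF5 went from the second to the fourth place at 48.9 ± 4.0 TPM, followed by PPP1R15A at 38.2 ± 1.2 TPM. DDIT4 dropped below both at 19.7 ± 0.97 TPM. STC2 went from the eighth place to the last at 0.768 ± 0.044 TPM, below ATF3 (2.40 ± 0.21 TPM) and CHAC1 (2.22 ± 0.096 TPM), whose ranges overlapped. Summed over the 10 genes, the level was 930.04 and 931.0 TPM in the Scrambled libraries and 586 and 608 TPM in the shPIWIL4 libraries, with ATF4 giving 48.7% to 51.8% of the sum in each library.

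ATF4, the transcription factor at the centre of the response, had 479 and 452 CPM in Scrambled and 279 and 315 CPM in shPIWIL4. Both shPIWIL4 libraries were low, and they differed from each other more than the Scrambled pair did. ATF4 was 1.57-fold lower (log2 fold change -0.65, SE 0.09, adjusted p = 3.3e-04). RefSeq lists the 4 processed copies ATF4P1, ATF4P2, ATF4P3 and ATF4P4, so reads may have been shared among them, and the ATF4 value is uncertain to that extent.

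ATF5, a bZIP paralog of ATF4 whose mRNA is likewise translated under stress, had 179 and 190 CPM in Scrambled and 64.1 and 59.1 CPM in shPIWIL4. It was 2.99-fold lower, a log2 fold change of -1.58 (SE 0.09, adjusted p = 1.3e-06). The groups were far apart, and the 95% interval of the log2 fold change, -1.78 to -1.39, lay below that of ATF4, -0.86 to -0.44. The RefSeq span of ATF5 overlaps IL4I1, NUP62 and the microRNA gene MIR4751. IL4I1 fell by 1.32 on the log2 scale and MIR4751 by 1.80, while NUP62 had -0.04 and was not called. The strand setting of the counting is not given in the sources used here, so shared reads cannot be told apart.

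ATF3, a bZIP factor induced by stress and by growth signals, was scarce. It had 4.79 and 3.85 CPM in Scrambled and 2.72 and 3.19 CPM in shPIWIL4, from 138 to 203 counts a library. The groups did not overlap, but the exact Poisson 95% interval of Scrambled library 2, 3.33 to 4.41 CPM, reached that of shPIWIL4 library 2, 2.73 to 3.72 CPM. Such intervals cover counting error only. ATF3 fell by 0.53 on the log2 scale (SE 0.16, adjusted p = 0.020). The call was lost without Scrambled library 1 (-0.35, adjusted p = 0.21) and with DESeq2 (adjusted p = 0.083), and the adjusted p ranged from 1.5e-04 to 0.21 over the alternatives.

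DDIT3 encodes CHOP, a bZIP factor tied to death of cells under lasting ER stress, and was the 1 gene of the 10 that rose. It had 36.1 and 31.4 CPM in Scrambled and 39.5 and 46.2 CPM in shPIWIL4. All shPIWIL4 values were above the Scrambled ones, though the nearest 2, 36.1 and 39.5 CPM, were close. DDIT3 rose 1.27-fold (log2 fold change 0.35, SE 0.11, 95% interval 0.10 to 0.60, adjusted p = 0.023). The call was lost without Scrambled library 2 (0.25, adjusted p = 0.20), with upper-quartile factors (0.22, adjusted p = 0.11) and under a stricter filter (0.28, adjusted p = 0.066), and the adjusted p ranged from 3.7e-06 to 0.20. DDIT3 overlaps MARS, a tRNA synthetase gene, in RefSeq, as well as MIR616 and LOC128125814. MARS rose by 0.42 on the log2 scale, from 131 ± 5.8 to 175 ± 11 CPM, and reads of DDIT3 and MARS cannot be told apart where they overlap.

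STC2, which encodes the secreted glycoprotein stanniocalcin 2, showed the largest change of the 10. It had 18.8 and 19.6 CPM in Scrambled (598 and 1035 counts) but 2.03 and 1.94 CPM in shPIWIL4 (103 and 101 counts). STC2 was 9.66-fold lower (log2 fold change -3.27, SE 0.12, adjusted p = 2.2e-07), and only 0.67% of tested genes had a lower log2 fold change. Its paralog STC1 was not tested, with 3 and 10 counts in the Scrambled libraries and 0 in both shPIWIL4 libraries.

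DDIT4 encodes REDD1, which restrains the growth kinase mTORC1. DDIT4 had 62.2 and 64.2 CPM in Scrambled and 17.03 and 16.5 CPM in shPIWIL4. The replicates were close and the groups far apart. DDIT4 was 3.77-fold lower, with a log2 fold change of -1.92 (SE 0.09, adjusted p = 5.7e-07).

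PPP1R15A encodes GADD34, the feedback subunit that leads protein phosphatase 1 to eIF2. It had 63.2 and 63.9 CPM in Scrambled and 44.3 and 43.9 CPM in shPIWIL4, the closest replicates among the 10 genes relative to their level. PPP1R15A fell by 0.53 on the log2 scale (SE 0.08, adjusted p = 4.6e-04). PPP1R15B, the constitutive subunit with the same role, had 122 ± 4.6 and 130 ± 3.7 CPM and was not called.

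TRIB3, a pseudokinase that binds AKT and ATF4, fell least. It had 173 and 169 CPM in Scrambled and 137 and 134 CPM in shPIWIL4, a 1.26-fold lower level (log2 fold change -0.33, SE 0.08, adjusted p = 5.2e-03). Without Scrambled library 1 the call was lost (adjusted p = 0.084). Its paralog TRIB1 fell by 1.13, from 22.9 ± 0.73 to 10.5 ± 0.68 CPM.

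ASNS, asparagine synthetase, had 19.0 and 17.4 CPM in Scrambled and 12.3 and 13.7 CPM in shPIWIL4. Both shPIWIL4 libraries were low, and ASNS fell by 0.48 on the log2 scale (SE 0.11, adjusted p = 4.4e-03). The adjusted p was 0.056 without Scrambled library 1. RefSeq lists 5 ASNS pseudogenes, and the span of ASNS overlaps CZ1P-ASNS, RPS3AP29 and SNRPCP9, so some reads may be shared.

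CHAC1, which breaks down glutathione, had the lowest CPM of the 10 genes, at 2.42 and 2.16 CPM in Scrambled and 1.70 and 1.65 CPM in shPIWIL4, from 77 to 114 counts a library. Its fall of 0.44 on the log2 scale (SE 0.17, 95% interval -0.82 to -0.06) had an adjusted p of 0.047. The call was lost in 7 of 12 alternatives, among them DESeq2 (adjusted p = 0.28), the fit with the replicate number as a block (adjusted p = 0.096) and the removal of any 1 library. The adjusted p ranged from 0.017 to 0.30. Its paralog CHAC2 rose by 0.61 (SE 0.17), from 1.78 ± 0.16 to 2.74 ± 0.31 CPM. The CHAC2 call was lost with DESeq2 and without Scrambled library 1.

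**Figure D2:**
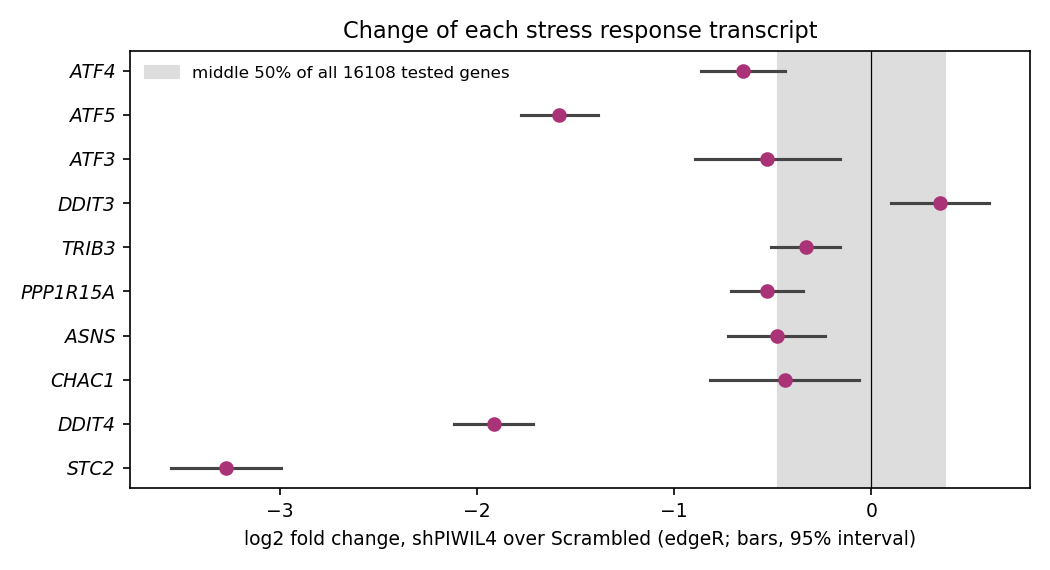
Log2 fold change of the 10 stress response genes (points, edgeR) with 95% intervals (bars), with zero marked by a line and the middle 50% of all 16108 tested genes shaded. STC2, DDIT4 and ATF5 lie to the left of all others at -3.27, -1.92 and -1.58, 6 genes lie between -0.65 and -0.33, and DDIT3 lies at 0.35.

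The 10 genes thus differed in the size of their change. The intervals of STC2, DDIT4 and ATF5 ended at -2.99, -1.71 and -1.39, below the lowest bound of the other 6 lower genes, -0.90 for ATF3. These 6 genes, ATF4 among them, had intervals that overlapped one another.

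Levels relative to ATF4 in the same library do not depend on the scaling between libraries. DDIT3 had 12.98 and 11.96 TPM per 100 TPM of ATF4 in Scrambled and 24.4 and 25.3 in shPIWIL4. The mean ratio was 1.99-fold higher, and the groups were far apart. For STC2 the ratio was 1.49 and 1.64 against 0.277 and 0.234, a 6.14-fold lower mean. DDIT4 gave 15.03 and 16.4 against 7.07 and 6.06, and ATF5 29.1 and 32.7 against 17.9 and 14.6. TRIB3, CHAC1 and ASNS were also higher relative to ATF4 in both shPIWIL4 libraries, by 1.25-fold, 1.15-fold and 1.12-fold on average. Their own levels fell, though by smaller estimated folds than ATF4. For CHAC1 the nearest ratios were close, 0.658 in Scrambled and 0.683 in shPIWIL4, from 77 to 114 counts a library. The share of all genes whose ratio to ATF4 separates the groups was not counted. In CPM, 78.6% of all tested genes did not overlap, so separation alone says little. The ratios of ATF3 and PPP1R15A overlapped between the groups. With 2 libraries against 2, an exact two-sided permutation test cannot give a p below 0.333, so no test of these ratios was made.

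**Figure D3:**
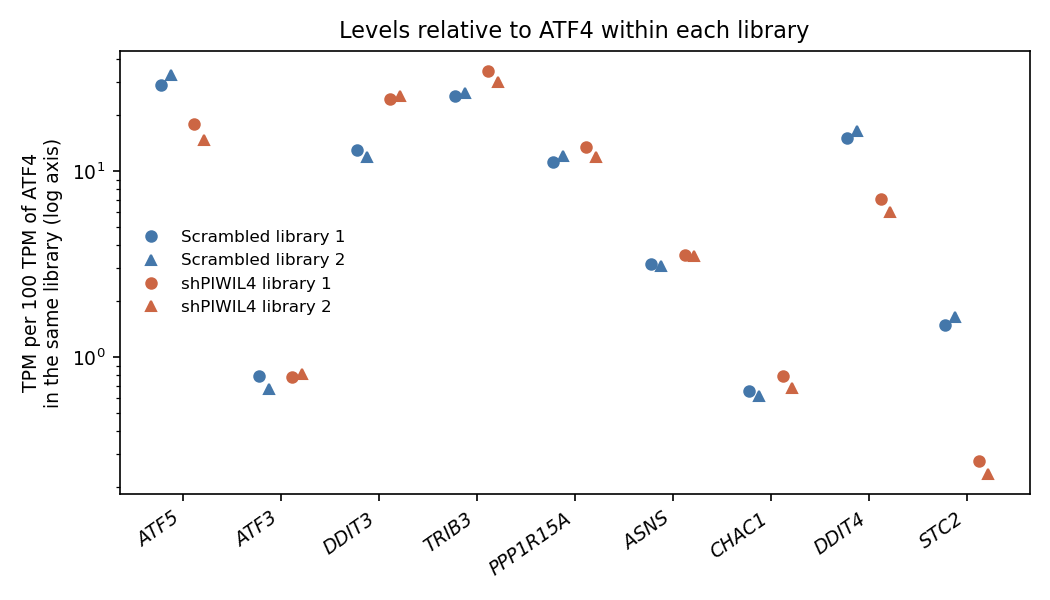
TPM of 9 stress response genes per 100 TPM of ATF4 in the same library (log axis), with points for single libraries coloured by group. DDIT3 lies near 12 to 13 in Scrambled and 24 to 25 in shPIWIL4, while ATF5, DDIT4 and STC2 lie lower in shPIWIL4.

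Promoter sequences were examined for letters that ATF4 and related factors are known to bind. The windows were the 250 bases before each RefSeq gene start (GRCh38.p14), with 18 windows for the 10 genes, because some have several starts. The motifs were TGATGNAA, the core of the C/EBP-ATF response element, TGACGTCA, the cAMP response element, and the ER stress response element (ERSE), each on both strands. Exact matches to TGATGNAA were present for ASNS, CHAC1 and ATF3 (TGATGGAA in ATF3), and in 3.14% of all 35116 windows. ASNS and ATF3 have 2 windows each, and the other window of each held no match. Counted over genes rather than windows, 268 of 11150 tested genes matched to a window held TGATGNAA. TGACGTCA was present for PPP1R15A and in 1.65% of all windows. The ER stress response element was found in no window of the 10 genes and in 0.0740% of all windows. The promoters of ASNS (chr7:97872409-97872658, minus strand), CHAC1 (chr15:40953221-40953470, plus strand) and PPP1R15A (chr19:48872171-48872420, plus strand) are shown for their matches. Those of STC2 (chr5:173328415-173328664, minus strand) and DDIT3 (chr12:57520515-57520764, minus strand) are shown as the genes with the largest fall and the only rise. Capitals mark the matches, and all are written 5′ to 3′ on the strand of the gene.
ASNS: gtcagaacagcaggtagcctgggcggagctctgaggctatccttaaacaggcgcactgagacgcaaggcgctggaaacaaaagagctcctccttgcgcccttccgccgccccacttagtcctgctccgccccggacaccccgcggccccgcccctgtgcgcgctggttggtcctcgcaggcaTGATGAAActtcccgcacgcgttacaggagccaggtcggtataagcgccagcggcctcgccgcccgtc
CHAC1: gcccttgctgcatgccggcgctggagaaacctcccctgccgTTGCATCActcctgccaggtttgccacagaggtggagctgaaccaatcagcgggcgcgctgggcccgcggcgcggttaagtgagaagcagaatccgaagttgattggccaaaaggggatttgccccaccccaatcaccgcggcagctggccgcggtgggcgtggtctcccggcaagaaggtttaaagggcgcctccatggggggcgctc
PPP1R15A: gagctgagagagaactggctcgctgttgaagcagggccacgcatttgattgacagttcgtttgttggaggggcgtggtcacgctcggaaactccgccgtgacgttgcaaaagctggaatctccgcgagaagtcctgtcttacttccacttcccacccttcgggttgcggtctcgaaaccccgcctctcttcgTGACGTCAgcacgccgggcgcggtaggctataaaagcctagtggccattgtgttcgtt
STC2: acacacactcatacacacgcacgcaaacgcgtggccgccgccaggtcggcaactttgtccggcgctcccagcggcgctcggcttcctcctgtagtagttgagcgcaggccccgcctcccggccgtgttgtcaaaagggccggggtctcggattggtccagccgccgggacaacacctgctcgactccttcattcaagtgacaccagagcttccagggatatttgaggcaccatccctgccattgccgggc
DDIT3: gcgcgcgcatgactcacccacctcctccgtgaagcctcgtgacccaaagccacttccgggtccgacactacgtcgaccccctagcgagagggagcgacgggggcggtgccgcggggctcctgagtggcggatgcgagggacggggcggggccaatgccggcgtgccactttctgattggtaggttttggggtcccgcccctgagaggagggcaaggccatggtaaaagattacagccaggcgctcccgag

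The match lay 68 to 61 bases before the start in ASNS, 209 to 202 bases before it in CHAC1, where it is on the opposite strand, and 58 to 51 bases before it in PPP1R15A. These genes had log2 fold changes of -0.48, -0.44 and -0.53. The windows of STC2, DDIT4 and ATF5, the genes with the largest falls, held none of the 3 motifs, which says only that these letters are not in these windows. Among 268 tested genes with TGATGNAA upstream, 29.5% were higher and 29.1% lower, beside 31.1% and 28.3% of all 11150 tested genes matched to a window.

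Genes that sit upstream of ATF4 in the pathway held 1 lower member. Of 19 eIF2 kinases, eIF2 and eIF2B subunits and their regulators, 9 rose and 1 fell (47.4% and 5.26%, beside 28.7% and 29.1% of all tested genes), with a median log2 fold change of 0.15. Among the kinases, EIF2AK2, the double-stranded RNA sensor PKR, rose from 21.2 ± 0.27 to 34.1 ± 2.8 CPM (0.69, SE 0.10). EIF2AK1, the haem-regulated kinase, and EIF2AK4, the amino acid sensor GCN2, each rose by 0.30 (adjusted p = 0.032 and 0.024). EIF2AK3, the ER stress kinase PERK, had 19.3 ± 0.69 and 20.7 ± 2.8 CPM and was not called. EIF2S1, the subunit that is phosphorylated, rose by 0.55. The other eIF2 subunits, EIF2S2 and EIF2S3, had log2 fold changes of 0.15 and 0.02 and were not called. Of the eIF2B exchange factor subunits, EIF2B1 and EIF2B3 rose by 0.36 and 0.55, while EIF2B2, EIF2B4 and EIF2B5 had log2 fold changes of 0.10, 0.05 and 0.11. DNAJC3, an inhibitor of PERK and PKR, rose by 0.83. GCN1L1 and IMPACT, an activator and an inhibitor of GCN2, rose by 0.26 and 0.36 (adjusted p = 0.022 and 6.5e-03). KIAA0141, now DELE1, which relays mitochondrial stress to EIF2AK1, fell by 0.40. OMA1, the protease that cleaves DELE1, had a log2 fold change of -0.08 and was not called. The higher count of this list was 6 with upper-quartile factors, under the stricter filter and with the replicate number as a block. With DESeq2 it stayed at 9.

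**Figure D4:**
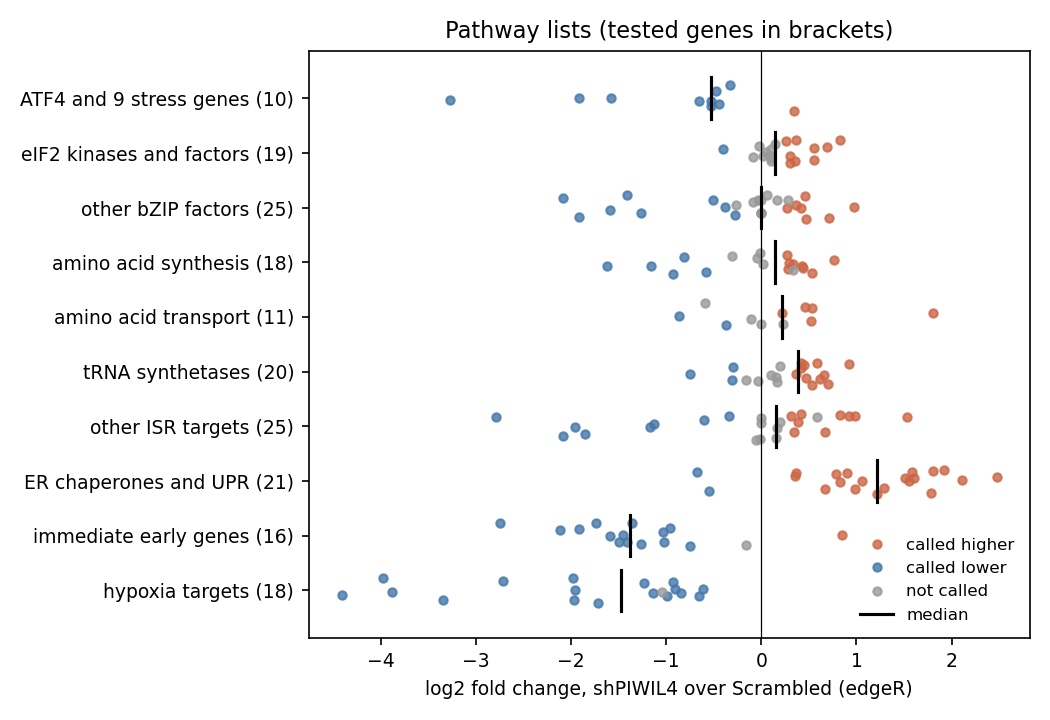
Log2 fold change (edgeR) of every tested gene of 10 lists, 1 point per gene, coloured by call, with the number tested in brackets and the median as a black bar. Vertical scatter has no meaning. The ER chaperone list lies mostly to the right with a median of 1.21, and the immediate early and hypoxia lists mostly to the left with medians of -1.38 and -1.48.

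The bZIP factors that can pair with or resemble ATF4 held 7 of 25 higher and 8 lower, with a median of -0.00474, shares (28% and 32%) near the 28.7% and 29.1% of all tested genes. The Jun and Fos family genes JUN, JUND and FOS fell by 1.92, 1.59 and 1.27. BATF, CREM and NFE2L1 rose by 0.97, 0.71 and 0.47. CEBPA, the most abundant of them at 383 ± 8.9 and 382 ± 34 CPM, was not called. The higher count was 4 without Scrambled library 2 or with upper-quartile factors.

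Other genes that ATF4 is known to drive included both higher and lower ones. Of 18 amino acid synthesis genes, 8 rose and 5 fell (44.4% and 27.8%, beside 28.7% and 29.1% of all tested genes), with a median of 0.14. PHGDH, the first enzyme of serine synthesis, fell by 0.92, CBS by 1.62 and PCK2 by 1.16. PYCR1, of proline synthesis, rose by 0.76, GOT1 by 0.53 and MTHFD2, of mitochondrial folate metabolism, by 0.43. GLUL, glutamine synthetase, rose by 0.44 from the highest level of the list. The higher count was 5 without Scrambled library 2 and 4 with upper-quartile factors, and 5 with the replicate number as a block.

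Of 11 tested amino acid transporters, 5 rose and 2 fell (45.5% and 18.2%, beside 28.7% and 29.1% of all tested genes), with a median of 0.21. SLC7A11, the cystine importer subunit, rose from 15.7 ± 0.99 to 54.7 ± 3.6 CPM (1.80, SE 0.10). SLC1A4 and SLC1A5 each rose by 0.53. SLC38A1 and SLC38A2 fell by 0.87 and 0.37. The lower count was 4 without shPIWIL4 library 1 and 1 without Scrambled library 2. Of 20 tRNA synthetase and export genes, 11 rose and 3 fell (55% and 15%, beside the same shares of all tested genes), with a median of 0.39. WARS, NARS and GARS rose by 0.92, 0.70 and 0.62, and DARS, SARS and AARS fell by 0.75, 0.31 and 0.30. Without Scrambled library 1 the lower count was 1.

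Among 25 other known targets of the response, 9 rose and 8 fell, with a median of 0.15. Some of the 25 were already counted above in the bZIP and tRNA synthetase lists, WARS among them. These shares, 36% and 32%, lie near the 28.7% and 29.1% of all tested genes. VLDLR, a lipoprotein receptor, rose from 140 ± 5.1 to 405 ± 34 CPM, and HERPUD1 rose by 0.98. VEGFA fell by 1.95, ADM2 by 1.85 and the death receptor gene TNFRSF10B by 1.17. With upper-quartile factors 5 were higher, and 4 of 18 were lower under the stricter filter. The 6 tested paralogs of the 10 genes held 1 higher, CHAC2, and 1 lower, TRIB1. With upper-quartile factors 3 were lower.

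ER chaperone and unfolded protein response genes, which the ER sensors ATF6 and IRE1 drive in parallel with PERK, were higher for 19 of 21 and lower for 2. These shares were 90.5% and 9.52%, beside 28.7% and 29.1% of all tested genes, and the median was 1.21. CRELD2, DNAJB11 and PDIA4 rose by 2.48, 2.11 and 1.60, and HSP90B1 rose from 1698 ± 107 to 6429.9 ± 870 CPM. EDEM1 and ERN1, the IRE1 gene, fell by 0.68 and 0.55. The lower count was 1 without Scrambled library 2. Of the 10 stress response genes, DDIT3 was the 1 that was also called higher. A list chosen with these results known gives no independent support to its direction.

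Several of the 10 genes are also known to be induced by low oxygen (DDIT4, STC2) or as immediate early genes (ATF3, PPP1R15A). Of 18 hypoxia target genes, 17 fell and 0 rose, with a median of -1.48. The lower share was 94.4%, beside 29.1% lower and 28.7% higher among all tested genes. The count of higher members was 0 at an unadjusted p under 0.05 in edgeR, and 0 in DESeq2. SLC2A3, ENO2 and PFKFB4 fell by 4.41, 3.88 and 3.35, and PGK1 fell by 0.66. Of 16 immediate early genes, 14 fell and 1, KLF4, rose (0.85), with a median of -1.38. These shares were 87.5% and 6.25%, beside the same shares of all tested genes. EGR1, JUN and IER2 fell by 2.74, 1.92 and 1.46, and MYC was not called (-0.16). The part of these groups in the falls of DDIT4, STC2, ATF3 and PPP1R15A was not tested.

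The genes whose profile over the 4 libraries was most like that of each gene were found by the root mean square distance of centred log2 CPM. The search covered 9417 other genes averaging 10 CPM or more. Loci with clone-style, provisional or date-converted names were left out, also from the counts within 0.1. For ATF4 these were RNF24, TNFSF14 and ORC2, at 0.00857, 0.00980 and 0.0101, and 439 genes lay within 0.1. For STC2 they were PFKFB4, SCART1 and HRC at 0.0630, 0.0722 and 0.0775, with 5 genes within 0.1. For DDIT4 they were AXL, ITGAX and RHBDF1 at 0.0232, 0.0240 and 0.0258, with 29 genes within 0.1. The profile of DDIT3 had 1164 genes within 0.1, with GLT8D1 the nearest at 0.00498. With 4 libraries in 2 groups, likeness mostly reflects the size of the group difference.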

How the data were processed

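RNA-seq of THP-1 cells was analysed in 4 libraries, grouped by their titles, since the word scrambled also stands in the treatment label of the shPIWIL4 libraries. Per the submitters' processing notes, STAR, featureCounts and DESeq2 were used on build hg19. Which versions, annotation and strand setting were used is not stated in those notes. The deposited tables hold raw counts per gene and TPM values that the authors derived, per the file headers. TPM described levels, and counts were tested.

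Genes passing filterByExpr (minimum count 10, minimum total 15; 16108 of 25680) entered edgeR 4.0.16 (R 4.3.3), with TMM factors, a robust quasi-likelihood F test, group as the only term, and Benjamini-Hochberg adjustment over all genes tested. The SE is the log2 fold change divided by the square root of F. TMM sets directions relative to the centre of tested genes, so a shift in overall RNA content would not show. The titles mark the libraries of each group as exp. rep1 and exp. rep2 but do not say whether they came from separate cultures. The p-values therefore measure only how far these samples vary, possibly for technical reasons alone. No batch is named in the labels, and a batch that follows the groups and the hairpin cannot be told apart.

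The 10 genes and all lists were chosen with earlier results of these data known. Some lists share genes, such as DNAJC3, WARS and PPP1R15B, so their counts are not independent. The genes named are the 10, PIWIL4, the eIF2 list, from each other list the 3 called genes with the smallest p in each direction and the most abundant, and the nearest profiles. MARS, IL4I1, NUP62 and MIR4751 were named as overlapping genes after their values were seen, as were CHAC2, TRIB1 and STC1 as paralogs. The other genes that overlap DDIT3 and ASNS are named without values. Within both groups the libraries differed by more than sampling noise (chi-square per gene 7.89 in Scrambled and 27.9 in shPIWIL4). On simulated data with 15895 genes tested, 16.3% of genes changed 1.25-fold were recovered, 76% at 1.5-fold, 89.4% at 2-fold and 100% at 4-fold. The simulation changed only 47 to 50 tested genes at each fold and gave 144 calls, against 9301 of 16108 in the real data. With so few changed genes the adjustment was stricter, so these rates do not describe recovery in the real comparison. Alternatives used DESeq2 1.42.0, limma 3.58.1 on log2(TPM + 1) and log2(TPM + 0.1), other factors and filters, each library left out, and a replicate block. The deposited normalized matrix was not used here.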

Additional observations from a re-analysis of the deposited data

How the results depend on the processing

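Over 13 alternatives, PIWIL4 and all 10 stress response genes kept their direction, and ATF4, ATF5, DDIT4, STC2 and PPP1R15A kept their call. With DESeq2, ATF3 (-0.52) and CHAC1 (-0.43) were not called, and 0 paralogs were higher against 1 (1 at an unadjusted p). With no filter CHAC1 was not called (-0.40) and 2 paralogs were lower. With upper-quartile factors DDIT3 was not called (0.22), so that 0 of the 10 were higher (0 also at an unadjusted p in edgeR, 1 in DESeq2), and higher counts were 4 for bZIP factors, 4 for amino acid synthesis and 5 for other targets, with 3 lower paralogs. This scaling moved the median of all genes to -0.12. With library totals 2 paralogs were lower. The stricter filter (a mean of at least 5 CPM) left 8 of the 10 genes, with DDIT3 not called (0.28), 0 higher (1 at an unadjusted p in edgeR, 1 in DESeq2), 0 higher and 2 lower paralogs (0 higher at an unadjusted p) and 4 lower other targets. ATF3 and CHAC1 were not tested under it.

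Leaving out 1 library at a time, where the lone library of a group is assumed to vary like the other pair, gave log2 fold changes of -0.56 to -0.39 for ASNS, -0.69 to -0.35 for ATF3, -0.53 to -0.34 for CHAC1, 0.24 to 0.47 for DDIT3 and -0.34 to -0.29 for TRIB3. Of the 10, 0 to 1 were higher and 5 to 8 lower. Higher counts were 5 to 9 for amino acid synthesis, 4 to 10 for bZIP factors and 0 to 1 for paralogs. Lower counts were 1 to 4 for transporters, 1 to 2 for ER genes and 1 to 4 for tRNA synthetases.

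The replicate block, with the titles' numbers 1 and 2, left CHAC1 uncalled (-0.45), gave 5 higher amino acid synthesis genes and called 3921 genes higher and 4197 lower. Deviations of same-numbered libraries correlated at -0.31 over 16108 genes and at -0.74 over the 9693 genes with a mean above 10 CPM, and the labels do not say that a number marks a shared batch, so the numbers were not taken to pair the libraries. With the pairs crossed, chosen after seeing the data, 5728 genes were higher and 5641 lower, and 3 paralogs were lower. Of 260 list counts under the alternatives, 241 stayed within 1.5 times the count reported. ATF3 and CHAC1 rest on 77 to 203 counts a library. The causes of these shifts were not tested.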
